A study of Homo sapiens with 4 samples.

Results

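Hyaluronan synthases, the hyaluronan-binding proteins CD44 and TNFAIP6, and 5 proteoglycans were followed in human lung fibroblasts depleted of the chromatin protein HMGB1. These 10 genes, called members in the plots, were HAS1, HAS2, HAS3, CD44, VCAN, DCN, LUM, BGN, CSPG4 and TNFAIP6, found by symbol on the primary chromosomes among the 63677 genes of the count files. IMR90 is a diploid fibroblast line from fetal lung, which the paper describes as primary cells. Isolates I90-10 and I90-79 of it, both at passage 5, each gave 1 control library, transfected with a non-targeting siRNA, and 1 library transfected with siRNA against HMGB1, collected after 72 h. An siRNA lowers a transcript without removing the gene, and both isolates belong to 1 cell line. Each group thus held 2 libraries, 1 per isolate, and p-values measured the spread between these 4 poly(A) RNA libraries.

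Hyaluronan is a long unsulfated sugar polymer, made at the plasma membrane by hyaluronan synthases from UDP-glucuronic acid and UDP-N-acetylglucosamine, and extruded into the matrix. There it is held by CD44 at the cell surface and by versican and other binding proteins in the pericellular coat. Proteoglycans are core proteins that carry sulfated glycosaminoglycan chains, and the small leucine-rich ones among them (decorin, lumican, biglycan) bind collagen fibrils. Lung fibroblasts make both, and these products are known from wound repair, fibrosis and senescence.

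The libraries held 29861687 to 35317010 counted reads, and 15398 genes passed the filter on low counts. HMGB1 itself stood at 181 and 237 CPM (counts scaled to the library total, here with TMM factors) in the controls of I90-10 and I90-79 and at 16.0 and 18.9 CPM after knockdown. This was a level lower by a factor of 12.005 (log2-fold change -3.59, SE 0.19, edgeR adjusted p = 0.0075), seen in 2 of 2 isolates. All 8 fibroblast marker genes passed the filter, with a summed level of 23533 to 44834 CPM in control and 24443 to 38313 CPM in knockdown libraries. Epithelial markers summed to 0.516 to 0.715 CPM in control and 0.623 to 0.640 CPM in knockdown libraries, with CDH1, KRT5, KRT14 and SFTPC at or below 3 counts. Leukocyte markers summed to 0.306 to 0.353 and 0.288 to 0.312 CPM, with PTPRC and CD3E at or below 3 counts. Pericyte and smooth muscle markers summed to 8.48 to 8.74 and 8.26 to 9.76 CPM. Endothelial markers summed to 149 to 150 and 135 to 136 CPM, nearly all of it TEK, with CDH5 at 0 in every library.

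Of the 10 genes, 9 were tested and HAS1 was too low. HAS2, TNFAIP6, VCAN and LUM had higher levels upon HMGB1 knockdown, HAS3 and CD44 lower ones, and in these 6 genes the 2 control and 2 knockdown libraries did not overlap. For DCN, BGN and CSPG4 the groups overlapped. A call required an edgeR adjusted p below 0.01 and a log2-fold change beyond 0.6 in either direction. In the fit that treated the libraries as unpaired, 0 of the 9 genes were called up and 0 down. That fit called 0.0649% of all tested genes up (10 genes) and 0.136% down (21 genes). At an unadjusted p below 0.05, 4 of the 9 were higher and 0 lower, against 13.6% and 14.7% of all tested genes. With the isolate as a replicate block, HAS2, TNFAIP6, VCAN and LUM were called up and none down, in a fit that called 6.68% of genes up and 7.84% down. Without overlap between groups, 4 genes were higher and 2 lower, against 29.8% and 30.2% of all tested genes. The median log2-fold change of the 9 genes was 0.19, with 6 positive and 3 negative, and that of all tested genes was -0.0054. In bulk RNA a change in the share of cells making a transcript and a change in the transcript per cell cannot be told apart.

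**Figure D1:**
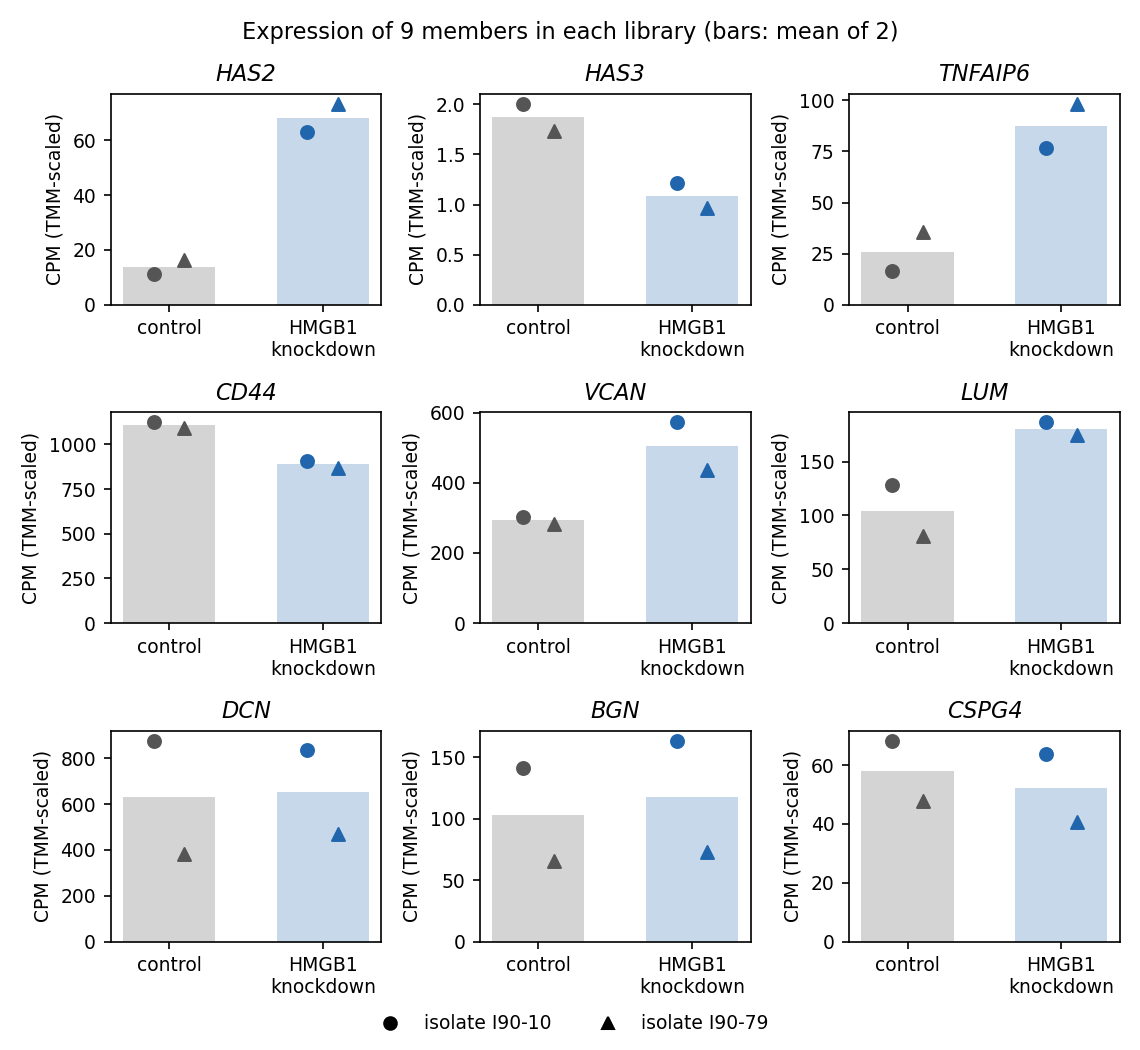
Level of each of the 9 tested genes in CPM (vertical axis, linear, from 0) in control (grey) and HMGB1 knockdown (blue) libraries. Bars are means of 2 libraries, circles are isolate I90-10 and triangles I90-79. Both knockdown points of HAS2, TNFAIP6, VCAN and LUM lie above both control points, and in DCN, BGN and CSPG4 the groups overlap. The circles lie above the triangles in both groups in every gene but HAS2 and TNFAIP6, where they lie below.

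Promoter sequences, here the 250 bases before the start site, could be read for 7 of the 10 genes. TNFAIP6 and VCAN are shown, the only genes with an entry among those called up with the isolate as block. They are RefSeq sequences on GRCh38.p14, both on the plus strand, at chr2:151357342-151357591 for TNFAIP6 and chr5:83471494-83471743 for VCAN. HAS2, DCN and LUM had no entry. Capitals mark a match to the AP-1 motif TGANTCA, searched on both strands.
TNFAIP6: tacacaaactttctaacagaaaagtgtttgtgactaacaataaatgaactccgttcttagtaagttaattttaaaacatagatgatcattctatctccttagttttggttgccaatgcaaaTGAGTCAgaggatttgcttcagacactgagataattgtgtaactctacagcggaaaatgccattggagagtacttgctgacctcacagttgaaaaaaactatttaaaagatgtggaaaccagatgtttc
VCAN: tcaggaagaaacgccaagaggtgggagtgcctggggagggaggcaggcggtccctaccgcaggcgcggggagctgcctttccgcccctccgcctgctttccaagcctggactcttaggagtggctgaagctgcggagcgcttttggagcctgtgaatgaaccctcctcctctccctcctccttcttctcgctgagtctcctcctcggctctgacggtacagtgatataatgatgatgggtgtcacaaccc
The match in TNFAIP6 begins at position -129 relative to the start site, and 1 of the 7 promoters held one. Of all promoters of this length, 6.596% (1801 of 27305) held a match. An NF-kappaB motif was found in 0 of the 7 and in 9.57% of all promoters. These matches describe letters in this window and not binding.

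Among the hyaluronan synthases, HAS2, the synthase that fibroblasts chiefly use, had 5.00-fold higher RNA upon HMGB1 knockdown, while HAS3 was lower and HAS1 was near 0. HAS2 (ENSG00000170961, hg19 chr8:122624356-122653630, minus strand) had 11.03 and 16.2 CPM in the controls of I90-10 and I90-79 and 63.0 and 73.4 CPM after knockdown. Both knockdown libraries thus lay far above both controls. The group means were 13.6 ± 3.64 and 68.2 ± 7.34 CPM (SD, n = 2 each), a log2-fold change of 2.32 (SE 0.22, 95% interval 1.77 to 2.88). The edgeR adjusted p of 0.0119 was too high for a call, whereas the blocked fit gave 3.1e-05 (log2-fold change 2.34, SE 0.12). The log2 difference was 2.51 in I90-10 and 2.18 in I90-79.

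HAS3, which makes shorter hyaluronan chains, was found at 2.01 and 1.74 CPM in control and at 1.21 and 0.961 CPM in knockdown libraries (ENSG00000103044, hg19 chr16:69139467-69152622, plus strand). The counts behind these levels were 59, 64, 35 and 30 reads, so that counting error was large. The difference was -0.78 on the log2 scale (SE 0.31, 95% interval -1.58 to 0.01, edgeR adjusted p = 0.180) and was not called in the blocked fit (adjusted p = 0.0879). HAS1 (ENSG00000105509, hg19 chr19:52216365-52227247, minus strand) had 0 and 1 reads in control and 0 and 2 in knockdown libraries. All were under 3 reads, a count equal to 0.0849 to 0.1005 CPM on unscaled library totals. No fold is given here for HAS1. Per kilobase of exon, HAS2 made up 87.4% and 91.9% of the summed HAS RNA in control libraries and 98.5% and 98.8% in knockdown libraries. The ratio of HAS2 to HAS3 per kilobase was 6.93 and 11.8 in control and 65.6 and 96.4 in knockdown libraries.

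Reads could be shared with genes on the opposite strand, since the strand setting of the counting is not given in the sources used here. Exons of HAS2 shared 201 bases (4.80%) with HAS2-AS1, which had 14 and 22 reads in control and 29 and 30 in knockdown libraries, against 324 to 2292 reads for HAS2. Exons of HAS3 shared 365 bases (6.90%) with CHTF8, a more abundant gene with 1117 and 1514 reads in control and 825 and 899 in knockdown libraries. HAS3 values were therefore uncertain. CD44 shared 0.835% of its exon bases with CD44-AS1, VCAN 3.05% with VCAN-AS1 and CSPG4 6.79% with ENSG00000260892. None of these 3 antisense genes exceeded 13 reads in a library. Of the 50-base pieces of CSPG4, 9.10% also occurred in other genes.

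TNFAIP6 encodes TSG-6, a secreted protein that binds hyaluronan and transfers heavy chains onto it, and its level was 3.36-fold higher upon knockdown. TNFAIP6 (ENSG00000123610, hg19 chr2:152214106-152236560, plus strand) had 16.6 and 35.4 CPM in the controls and 76.9 and 98.5 CPM after knockdown. The lower knockdown value was above the higher control value, and I90-79 was higher than I90-10 in both groups. The means were 26.0 ± 13.3 and 87.7 ± 15.2 CPM (SD, n = 2 each). The log2-fold change was 1.75 (SE 0.37, 95% interval 0.81 to 2.69, edgeR adjusted p = 0.0507). With the isolate as block it was 1.83 (SE 0.17, edgeR adjusted p = 2.0e-04). In I90-10 the log2 difference was 2.21 and in I90-79 it was 1.47.

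CD44, the main cell-surface receptor for hyaluronan, was abundant and somewhat lower upon knockdown. CD44 (ENSG00000026508, hg19 chr11:35160417-35253949, plus strand) was measured at 1125 and 1093 CPM in control and at 906 and 869 CPM in knockdown libraries. The 2 groups did not overlap, and the isolates nearly coincided. The log2-fold change of -0.32 (SE 0.14, 95% interval -0.66 to 0.02, edgeR adjusted p = 0.199) was not called. In the blocked fit the same size had an adjusted p of 0.0334 and was under the fold threshold.

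VCAN encodes versican, a large chondroitin sulfate proteoglycan that binds hyaluronan, and was 1.72-fold higher upon knockdown. VCAN (ENSG00000038427, hg19 chr5:82767284-82878122, plus strand) had 303 and 283 CPM in control and 573 and 437 CPM in knockdown libraries, so that the knockdown libraries were both higher but differed more from each other. The log2-fold change was 0.79 (SE 0.17, 95% interval 0.35 to 1.22, edgeR adjusted p = 0.0550), and 0.77 with the isolate as block (edgeR adjusted p = 0.00129). The log2 difference was 0.92 in I90-10 and 0.63 in I90-79.

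Of the small leucine-rich proteoglycans, which shape collagen fibrils, LUM was higher in both isolates while DCN and BGN were not distinguishable between groups. LUM, lumican (ENSG00000139329, hg19 chr12:91496406-91505608, minus strand), had 128 and 80.6 CPM in control and 187 and 175 CPM in knockdown libraries. Its 2 knockdown libraries were close to each other and above both controls, which lay further apart. The difference was 1.73-fold, or 0.79 on the log2 scale (SE 0.23, 95% interval 0.21 to 1.38, edgeR adjusted p = 0.0987), and the blocked fit gave 0.83 (edgeR adjusted p = 0.00294). It was smaller in I90-10 (0.55) than in I90-79 (1.11), a difference that could not be tested with 1 library per isolate and group.

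DCN, decorin (ENSG00000011465, hg19 chr12:91539025-91576900, minus strand), was measured at 877 and 383 CPM in control and 838 and 468 CPM in knockdown libraries. The 2 libraries of I90-10 were high in both groups and those of I90-79 low. The log2-fold change was 0.05 (SE 0.46, 95% interval -1.11 to 1.21, edgeR adjusted p = 0.955), and with the isolate as block 0.11 (95% interval -0.15 to 0.37, adjusted p = 0.491). BGN, biglycan (ENSG00000182492, hg19 chrX:152760397-152775012, plus strand), showed the same arrangement, with 141 and 65.2 CPM in control and 163 and 72.4 CPM in knockdown libraries. The group difference of BGN was 0.19 on the log2 scale (SE 0.50, 95% interval -1.07 to 1.46, edgeR adjusted p = 0.836), and 0.18 with the block (95% interval -0.03 to 0.39). The unpaired intervals of both genes thus spanned more than a 2-fold change in either direction, and the blocked ones were much narrower.

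CSPG4, the transmembrane proteoglycan NG2, had 68.4 and 48.0 CPM in control and 63.8 and 40.5 CPM in knockdown libraries (ENSG00000173546, hg19 chr15:75966663-76005189, minus strand). Both isolates were slightly lower, by 0.10 and 0.24 on the log2 scale, and the groups overlapped. The log2-fold change was -0.16 (SE 0.28, 95% interval -0.85 to 0.54, edgeR adjusted p = 0.751).

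**Figure D2:**
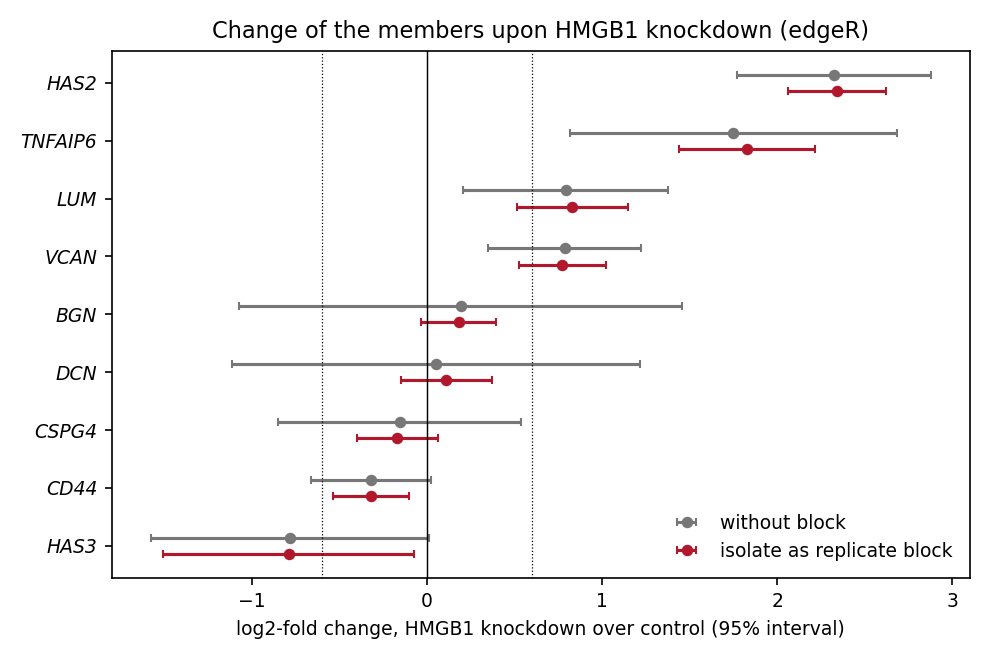
Log2-fold change of each of the 9 tested genes, knockdown minus control, with 95% intervals of the edgeR fit without and with the isolate as replicate block (dotted lines, the threshold of 0.6 in either direction). HAS2 at 2.32 and TNFAIP6 at 1.75 stand furthest above 0, and the intervals of DCN, BGN and CSPG4 are much narrower with the block.

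A route modelled on the paper's methods, DESeq2 after removal of unwanted variation with RUVs, called HAS2, TNFAIP6, VCAN, LUM, DCN and BGN up and none of the 9 down. This route called 5.56% of genes up and 5.9% down. RUVs was rebuilt here from its published description with 1 factor, a number that the paper does not give. These calls are therefore not those of the paper. DCN (log2-fold change 0.66, DESeq2 adjusted p = 1.2e-05) and BGN (log2-fold change 0.78, DESeq2 adjusted p = 1.9e-05) were called in no other fit that was run. Within isolates the log2 difference was 0.21 in I90-10 and 0.15 in I90-79 for BGN, and -0.066 and 0.29 for DCN. In unpaired edgeR fits without 1 library, where 1 group held a single isolate, the direction of both depended on which library was left out. Without the control of I90-79 the edgeR log2-fold change was -0.43 for DCN and -0.26 for BGN, and without the control of I90-10 it was 0.77 and 0.85.

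Expression levels between genes were compared per kilobase of annotated exon, so their order depends on the annotation. In control libraries the order was CD44 (110 CPM per kilobase), DCN (77.9), BGN (42.1), LUM (34.7), VCAN (19.7), TNFAIP6 (16.5), CSPG4 (7.02), HAS2 (3.25), HAS3 (0.354) and HAS1 (0.00605). Of neighbours in this order, DCN and BGN, BGN and LUM, and VCAN and TNFAIP6 overlapped over the 2 libraries. Upon knockdown the order was CD44 (88.2 CPM per kilobase), DCN (80.8), LUM (60.1), TNFAIP6 (55.6), BGN (48.1), VCAN (34.0), HAS2 (16.3), CSPG4 (6.29), HAS3 (0.205) and HAS1 (0.0143). HAS2 passed CSPG4, with no overlap between these genes in either group. TNFAIP6 moved from rank 6 to rank 4, but in knockdown libraries it overlapped both LUM and BGN. There, all neighbours in the order from CD44 down to VCAN overlapped, so that their ranks were not resolved.

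**Figure D3:**
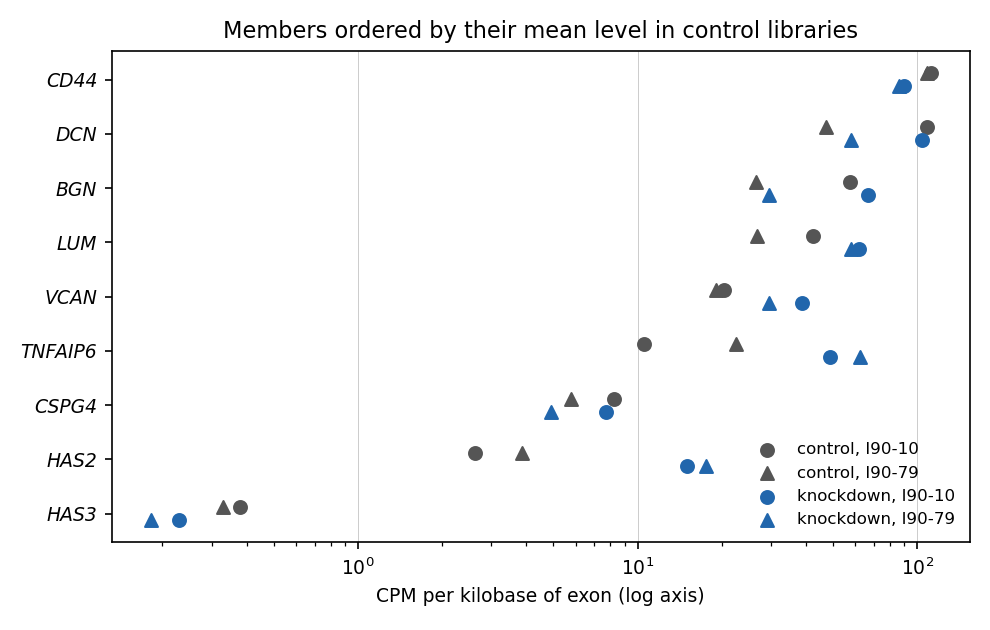
Levels of the 9 tested genes in CPM per kilobase of exon (horizontal log axis), with 1 point per library in control (grey) and knockdown (blue), circles for I90-10 and triangles for I90-79. CD44 has the highest mean in both groups, at 110 and 88.2, and HAS2 goes from a mean of 3.25 to 16.3, past CSPG4.

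The isolates differed from each other in several of these genes, in both groups. A test of I90-79 against I90-10 with the group as the other term, added after the values had been seen, called 1.67% of all tested genes in either direction (257 genes), and 2 of the 9. BGN was 2.21-fold higher in I90-10 (log2 difference -1.14, SE 0.09, edgeR adjusted p = 0.00158) and DCN 2.03-fold higher in I90-10 (log2 difference -1.02, SE 0.11, edgeR adjusted p = 0.0035). CSPG4 was 1.498-fold higher in I90-10 (edgeR adjusted p = 0.0158) and TNFAIP6 1.63-fold higher in I90-79 (edgeR adjusted p = 0.0444), neither past the threshold. For HAS2 (log2 difference 0.37, edgeR adjusted p = 0.112) and CD44 (log2 difference -0.05, edgeR adjusted p = 0.808) no difference was called. Of the 8 fibroblast markers, 7 were also higher in I90-10, 5 of them called, for example COL1A1 at 12559 and 10573 CPM against 5665 and 5823 CPM in I90-79. The remaining marker, PDGFRA, was higher in I90-79 and not called (log2 difference 0.23, edgeR adjusted p = 0.382). The part of these markers in the isolate differences of BGN and DCN was not tested.

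**Figure D4:**
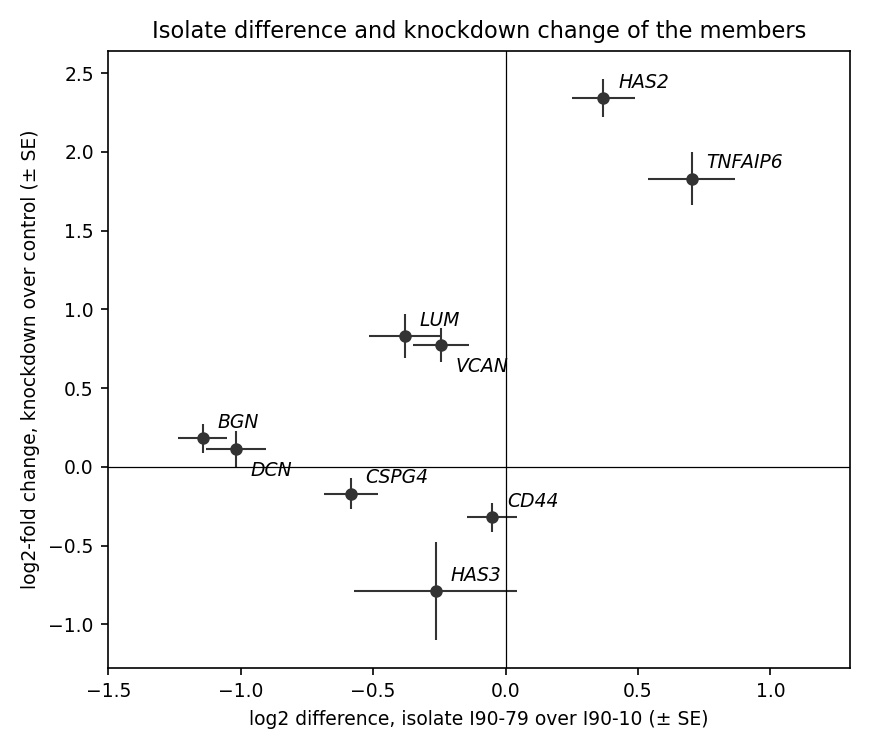
Log2 difference between isolates (I90-79 minus I90-10) on the horizontal axis and log2-fold change upon knockdown on the vertical axis for the 9 tested genes, both from the edgeR fit with isolate and group as terms, with SE bars. BGN and DCN lie at -1.14 and -1.02 on the isolate axis and at 0.18 and 0.11 on the knockdown axis, where HAS2 lies at 2.34 and TNFAIP6 at 1.83.

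The surrounding pathway was given by 7 lists of 120 genes, of which 80 were tested. None of the 80 was called in the unpaired fit, 12 were higher and 16 lower at an unadjusted p below 0.05, and 11 were called up and 11 down with the isolate as block. The median log2-fold change over the 80 genes was -0.13, with 36 positive and 44 negative. As for the 9 genes, these counts stand beside 0.0649% up and 0.136% down in the unpaired fit and 6.68% up and 7.84% down in the blocked fit. In what follows, called genes are those of the blocked fit.

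Enzymes that make the sugar precursors of hyaluronan went both ways. Of 8 enzymes, all tested, 3 were called down and 1 up. UGDH, which makes UDP-glucuronic acid, had 103 and 82.9 CPM in control and 35.4 and 38.5 CPM in knockdown libraries, a log2-fold change of -1.33 (edgeR adjusted p = 0.0147, with the block 2.3e-04). UGDH RNA was thus lower in the libraries in which HAS2 RNA was higher. UGP2, which makes UDP-glucose, fell from 134 and 126 to 73.5 and 71.5 CPM (log2-fold change -0.84, edgeR adjusted p with the block 4.5e-04). GNPNAT1, which acetylates glucosamine 6-phosphate, rose from 19.5 and 24.7 to 49.7 and 57.3 CPM (log2-fold change 1.27, edgeR adjusted p with the block 1.3e-04). Of its exon bases 35.6% overlapped ENSG00000259049, which had 0 reads in every library. The remaining called enzyme, UAP1, which makes UDP-N-acetylglucosamine and was named after its values were seen, fell from 101 and 75.5 to 48.5 and 48.6 CPM.

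Of the genes of hyaluronan breakdown (10 listed, 7 tested), none was called down. CEMIP2, a cell-surface hyaluronidase, was measured at 117 and 107 CPM in control and 77.2 and 91.8 CPM in knockdown libraries, and GUSB, lysosomal beta-glucuronidase, at 21.96 and 25.5 against 32.5 and 30.6 CPM. Neither was called. Of 19 other hyaluronan-binding proteins 6 were tested and none called. PTX3, which joins the TSG-6 and hyaluronan matrix, had 169 and 122 CPM in control and 113 and 118 CPM in knockdown libraries. LAYN, a hyaluronan receptor, had 41.5 and 29.7 against 28.7 and 27.0 CPM. AMBP, the precursor of bikunin, was low, at 0.579 and 0.380 CPM in control and 1.66 and 1.06 CPM in knockdown libraries.

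Among 15 other small leucine-rich proteoglycans 5 were tested and none called. TSKU had 78.9 and 88.4 CPM in control and 130 and 93.98 CPM in knockdown libraries, PODN had 16.5 and 8.58 against 14.9 and 6.28 CPM, and CHADL had under 1 CPM throughout. PODN, like DCN and BGN, was higher in I90-10 in both groups (log2 difference between isolates -1.09, edgeR adjusted p = 0.00813). The same held for FMOD of this list (log2 difference -1.20, edgeR adjusted p = 0.00918). Of 21 other cell-surface and basement-membrane proteoglycans 16 were tested, with 2 called up and 2 down. SDC1, syndecan-1, fell from 39.1 and 44.7 to 22.1 and 21.1 CPM (log2-fold change -0.96, edgeR adjusted p = 0.0212, with the block 6.3e-04). GPC4, a glypican, fell from 5.17 and 3.45 to 0.970 and 1.02 CPM, and GPC5, another glypican, rose from 0.409 and 0.461 to 2.22 and 1.92 CPM. Both glypicans were low, and their log2-fold changes were -2.10 and 2.23.

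Enzymes that build and sulfate glycosaminoglycan chains on the core proteins numbered 40, with 32 tested, 6 called up and 5 down. XYLT1, a xylosyltransferase that starts the chain, fell from 38.6 and 35.1 to 22.2 and 21.1 CPM (log2-fold change -0.77, edgeR adjusted p with the block 0.0013). CHST14, which sulfates dermatan, fell from 37.9 and 37.97 to 18.1 and 16.7 CPM (log2-fold change -1.13, edgeR adjusted p = 0.0143, with the block 2.6e-04). HS2ST1, which sulfates heparan, rose from 41.0 and 45.3 to 75.2 and 78.0 CPM (log2-fold change 0.83, edgeR adjusted p with the block 6.2e-04). Of its exon bases 34.7% overlapped other genes, each of which had no more than 2 reads in a library. Of 7 proteases that cleave proteoglycans 6 were tested, with 1 called in each direction. ADAMTS5, an aggrecanase and versicanase, rose from 11.1 and 43.99 to 120 and 150 CPM (log2-fold change with the block 2.55, edgeR adjusted p 8.7e-04). ADAMTS8 fell from 95.8 and 45.7 to 30.4 and 8.39 CPM (log2-fold change with the block -2.02, edgeR adjusted p 1.7e-04). ADAMTS15 had 53.2 and 19.9 CPM in control and 20.9 and 18.7 CPM in knockdown libraries and was not called.

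**Figure D5:**
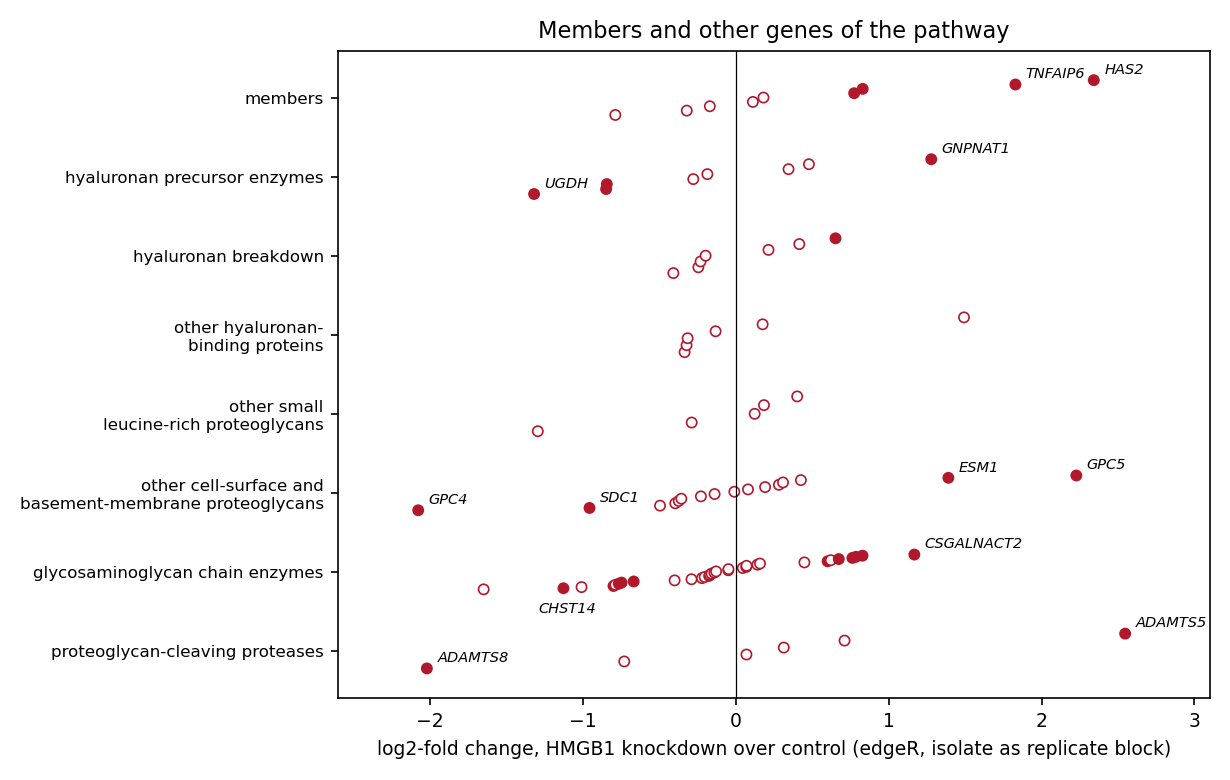
Log2-fold change upon knockdown (horizontal axis, edgeR fit with the isolate as block) of the 9 tested members in the top row and the 80 tested pathway genes by list below, with 1 point per gene, filled where called. Heights within a row only spread the points. Every row has points on both sides of 0, from GPC4 at the left to ADAMTS5 at 2.55.

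The gene with the most similar pattern to a member, by Euclidean distance of centred log2 CPM over the 4 libraries among 88 genes, was GPC5 for HAS2 (0.477), NDST1, a heparan sulfate sulfotransferase, for VCAN (0.225) and for LUM (0.258), and HAS2 for TNFAIP6 (0.638). NDST1 had 194 and 157 CPM in control and 317 and 285 CPM in knockdown libraries.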

How the data were processed

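IMR90 fibroblasts of isolates I90-10 and I90-79 were profiled by paired-end poly(A) RNA sequencing 72 h after transfection with non-targeting or HMGB1 siRNA. The authors aligned reads with STAR to hg19 and counted them per gene with featureCounts, and deposited raw counts, 1 file per library with 63677 genes. Versions, strand setting and how read pairs were counted are not given in the sources used here. The isolate label fixed the replicate number.

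Counts as deposited were tested with edgeR 4.0.16 (quasi-likelihood F-test, filterByExpr, TMM scaling, Benjamini-Hochberg over 15398 genes) in R 4.3.3, without a block. Genes with an adjusted p under 0.01 were called when they also moved by over 0.6 on the log2 scale. The fit with the isolate as replicate block, DESeq2 1.42.0, and RUVs (1 factor) before DESeq2 were alternatives. Replicate numbers pair the libraries because the labels give the same isolate the same number in both groups, and the isolate difference of control and knockdown libraries correlated across genes (r = 0.46, over genes that are not independent). CPM are counts over TMM-scaled library totals, and per-kilobase values use the exon length in the files. Per-isolate values are differences of log2 CPM with a prior count of 2.

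The 10 genes, the 7 pathway lists, and marker lists were chosen with earlier results of these data known. Named were the members, HMGB1, overlapping genes, per list the 3 tested genes of lowest p, and the gene nearest in pattern to each member with unadjusted p below 0.05. Values under 3 counts (0.0849 to 0.1005 CPM on unscaled library totals) were treated as the floor, which covers counting error only. Promoters came from RefSeq (GRCh38.p14), exon overlaps from the coordinates in the files and 3′ untranslated regions from an hg19 gene annotation. Some items named by this rule are not reported here. The isolate test was added after the values were seen. 1 marker gene, PECAM1, was not matched. The code was tested on simulated counts.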

Additional observations from a re-analysis of the deposited data

Results flagged for a closer look

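DCN was flagged because its log2 difference upon knockdown was negative in I90-10 (-0.066) and positive in I90-79 (0.29). The difference between the isolates was not tested, since 1 library per isolate and group leaves no residual degrees of freedom. DCN had 877 and 838 CPM in I90-10 and 383 and 468 CPM in I90-79, in control and knockdown libraries respectively.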

How the results depend on the processing

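Because the isolates are paired, the fit with the replicate block matters most: it called 4 of the 9 genes up (HAS2, TNFAIP6, VCAN, LUM) against 0 in the unpaired fit, and 0 down, and 11 pathway genes in each direction. DESeq2 called 3 up and RUVs with DESeq2 called 6. The unfiltered fit called 4. The looser adjusted p of 0.05 at any fold called 1, and its share over all genes was not computed. Leaving out 1 library left a single library in 1 group, and effect sizes of those fits are given below. None of the 13 alternatives called any of the 9 down. Over all 15398 genes, calls were 10 up and 21 down in the unpaired fit, 1028 and 1207 with the block and 31 and 98 with library totals. The number of genes tested differed in the other fits. DESeq2 called 702 up and 788 down of 14646, RUVs 755 and 801 of 13584, and the unfiltered fit 1118 and 1275 of 27391.

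The median log2-fold change of the 9 genes was 0.19, and 0.20 by DESeq2, 0.78 with RUVs, 0.20 unfiltered and -0.35 to 0.83 leaving out 1 library. DESeq2, RUVs and the unfiltered fit also gave a value for HAS1, at no more than 2 reads a library, and over all 10 genes their medians were 0.50, 0.72 and 0.50. Among pathway genes DESeq2 called 7 up and 9 down, RUVs 8 and 9, the unfiltered fit 11 and 14, the looser adjusted p 6 and 9, and leaving out 1 library 0 to 2 and 0 to 5. HMGB1 ranged from -3.77 to -3.38 leaving out 1 library. The direction turned for DCN (-0.43 without the control of I90-79 or the knockdown of I90-10; range -0.43 to 0.77 leaving out 1 library), for BGN (-0.26 and -0.51 in these settings; range -0.51 to 0.85) and for CSPG4 (0.14 with RUVs, 0.12 without the control of I90-10, 0.14 without the knockdown of I90-79; range -0.52 to 0.14). Fits without 1 library were unpaired and left a single isolate in 1 group. In them isolate and knockdown differences cannot be told apart. The cause was not tested. HAS2 stayed between 2.07 and 2.63, TNFAIP6 between 1.31 and 2.40, VCAN between 0.58 and 0.97 and LUM between 0.50 and 1.16. With 2 libraries a group taken as unpaired, the smallest exact permutation p is 0.333, and pairing by isolate leaves fewer arrangements. Counts under 100 reads limit HAS3.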

Other observations

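CEMIP, a secreted hyaluronan-degrading protein named here after its values were seen, had 555 and 256 CPM in control and 259 and 389 CPM in knockdown libraries of I90-10 and I90-79. Its log2 difference was -1.10 in I90-10 and 0.61 in I90-79, and this difference was not tested.

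The word GCAGTT was counted in the longest 3′ untranslated region of each gene, because an earlier look at these data had raised it. Over all tested genes, those with a very short region were left out. The median log2-fold change upon knockdown was 0.07 for 7332 genes with 0 copies, -0.05 for 3107 with 1 copy and -0.20 for 2245 with 2 or more. The median length of the region rose with the number of copies, from 1252.5 to 2478 and 4309 bases. Of the 9 tested genes, 5 had 0 copies (HAS3, LUM, BGN, CSPG4 and TNFAIP6), 3 had 1 (HAS2, CD44 and VCAN) and DCN had 2. UGDH had 1 copy, UGP2 had 2 and UAP1 had 0. The siRNA sequences are not given in the sources used here, and the part of this word in any result was not tested.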
